A study of Mus musculus with 12 samples.

Results

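The Toll-like receptor adaptor and kinase genes are a list of 10 genes whose proteins carry the signal inward from Toll-like receptors. The list was applied by gene symbol, and 8 of the 10 were matched to a named probe set among 24675 named genes: Myd88, Tirap, Ticam1, Ticam2, Irak2, Irak3, Traf6 and Map3k8. The other two are not analysed here. No filter on low values was used, so none of the 8 was left out for its level. Each of the 8 lay above the array median, 4.84 to 4.94 on the log2 scale, on all 12 arrays.

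Expression was measured on 12 whole-transcript arrays in bone marrow-derived macrophages, primary cells that grow out of mouse marrow in medium holding M-CSF from L cells. The 4 groups of 3 arrays were hepcidin for 3 h, PBS for 3 h, hepcidin for 1 h and PBS for 1 h. All groups came from wild-type mice 8 to 10 weeks old, were cultured for 7 days, and spent 1 h in DMEM alone before hepcidin or PBS was added. The dose of hepcidin, the peptide hormone that binds the iron exporter ferroportin, is not settled, since the growth protocol gives 1 µg/ml and the treatment protocol 10 µg/ml. The labels do not give the strain beyond wild type, nor whether the 3 samples of each group are from different mice or culture dishes. Each p-value is thus set against the variation among these samples, and that variation could be technical.

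Toll-like receptors recruit adaptor proteins that share a TIR domain. Myd88, brought to some receptors by Tirap, assembles IRAK family kinases into a complex that activates the ubiquitin ligase Traf6, and from there NF-kB and MAP kinases. Ticam1, which reaches Tlr4 through Ticam2, leads a separate branch towards type I interferon. In macrophages several of these genes are themselves induced by the signal, among them Irak3, an IRAK protein that restrains signalling.

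Arrays of a group correlated with each other across probe sets at r of 0.994 to 0.997. Of 10 macrophage markers, 8 were measured, and all 8 lay above the array median on every array. At 3 h, 2 of these 8 were higher with hepcidin than with PBS and 1 lower, by the limma threshold of the next paragraph. Over all genes 2.8% were higher and 2.53% lower. At 1 h 0 passed, where 0.527% of all genes were higher and 0.0324% lower. With an unadjusted p under 0.05, 1 was higher at 1 h (3.74% of all genes). Cd14, a co-receptor for lipopolysaccharide, averaged 11.06 on the log2 scale with hepcidin and 10.26 with PBS at 3 h, and Spi1, the macrophage lineage factor, averaged 10.90 with hepcidin and 10.60 with PBS. Mertk, a receptor for apoptotic cell uptake, averaged 7.83 with hepcidin and 8.91 with PBS at 3 h. Among markers of other cells, 6 of 9 for neutrophils and their precursors, 5 of 7 for dendritic cells, 3 of 4 for B cells and 4 of 4 for T and NK cells lay below the array median on every array. The same held for 3 of 6 fibroblast, 4 of 5 mast cell and basophil and 2 of 2 erythroid markers. Above the array median on every array were 2 of 6 fibroblast, 1 of 9 neutrophil, 1 of 4 B cell and 1 of 5 mast cell and basophil markers. The neutrophil markers together averaged -0.73 to -0.57 log2 units from the array median in the hepcidin arrays of 3 h, -0.81 to -0.67 in the PBS arrays of 3 h, -0.73 to -0.28 in the hepcidin arrays of 1 h and -0.66 to -0.50 in the PBS arrays of 1 h. Of the 37 measured markers of these other cells, 0 passed that threshold in limma between hepcidin and PBS at either time. At an unadjusted p under 0.05, 4 were higher and 2 lower at 3 h (9.05% and 7.83% of all genes). At 1 h, 1 was higher and 3 lower (3.74% and 3.08% of all genes). The part of these markers in the results was not tested. In bulk RNA, fewer cells of a type and less RNA per cell cannot be told apart.

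Of the 8 genes, 3 responded to hepcidin past the threshold. Irak2 and Irak3 rose at 3 h. Map3k8 rose at 1 h, and its difference at 3 h was smaller. A gene passed at an adjusted p under 0.05 in limma, a linear model with moderated variances fitted to all 24675 named genes at once, with Benjamini-Hochberg adjustment over all of them. At 3 h 2 of 8 were higher and 0 lower, where 2.8% of all genes were higher and 2.53% lower. At 1 h 1 of 8 was higher and 0 lower, where 0.527% of all genes were higher and 0.0324% lower. At an unadjusted p under 0.05, 5 of 8 were higher and 0 lower at each time. Over all genes the same shares were 9.05% higher and 7.83% lower at 3 h, and 3.74% higher and 3.08% lower at 1 h. The median log2 difference of the 8 was 0.20 at 3 h, against 0.016 over all genes, and 0.19 at 1 h, against -0.0022 over all genes. Groups of 3 arrays did not overlap, with hepcidin higher, in 5 of 8 genes at 3 h (11.8% of all genes) and in 6 of 8 at 1 h (6.47% of all genes). Some of these gaps were very narrow. For Tirap at 3 h the lowest hepcidin value was 7.9134 and the highest PBS value 7.9123. For Ticam2 at 1 h they were 7.2722 and 7.2693. The list was chosen with earlier results of these data known. All 8 genes lay above the array median, whereas the all-gene values also take in genes below it. The all-gene shares and medians are thus not a like baseline, and the excess over them was not tested.

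**Figure D1:**
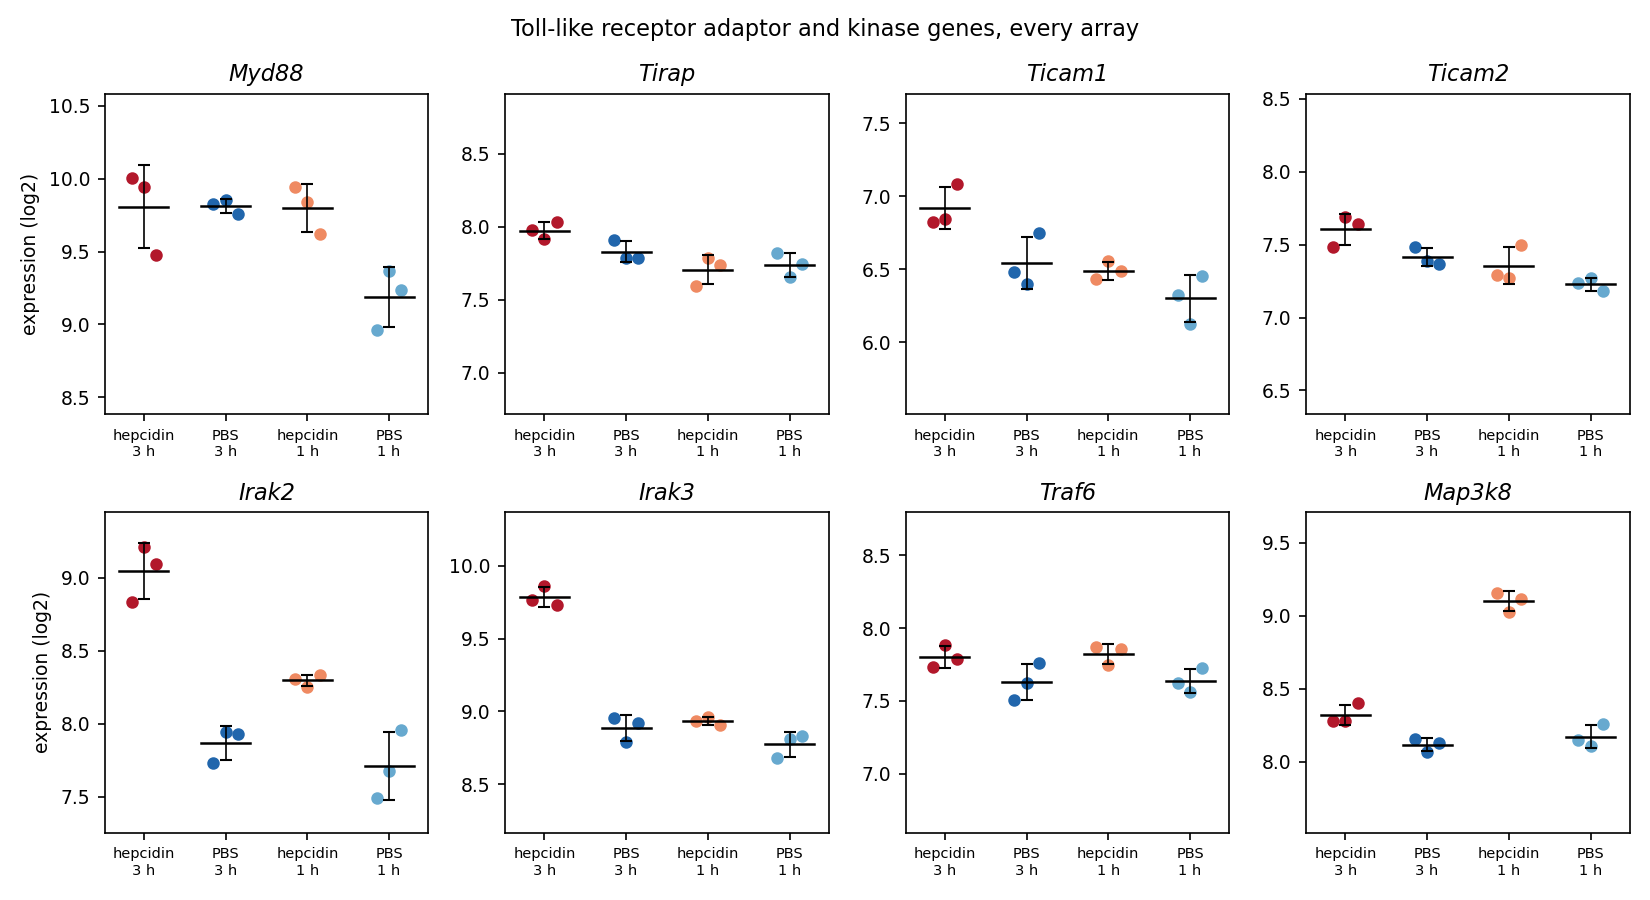
Expression (log2) of the 8 adaptor and kinase genes on every array, with 1 point per array, the group mean as a horizontal line and the SD (n = 3) as an error bar. Each panel spans the same range of log2 units around its own centre. Irak2 and Irak3 are highest in the hepcidin arrays of 3 h, and Map3k8 is highest in those of 1 h.

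Irak2 (Entrez gene 108960) encodes an IRAK family member that joins the Myd88 complex and prolongs its signal. Its level was 8.83, 9.21 and 9.09 on the log2 scale in the hepcidin arrays of 3 h, against 7.73, 7.94 and 7.93 in the PBS arrays of 3 h. At 1 h it was 8.31, 8.25 and 8.33 with hepcidin, against 7.49, 7.68 and 7.95 with PBS. Hepcidin arrays lay above PBS arrays without overlap at both times, and those of 3 h lay above those of 1 h. Irak2 rose 2.26-fold at 3 h (log2 difference 1.18, SE 0.12, limma adjusted p = 6.83e-05), and its change was the 107th in absolute size among all genes. At 1 h the difference of 0.59 (SE 0.12) did not pass (adjusted p = 0.0625). That call turned with the array left out: leaving out PBS 1 h replicate 3 gave a pass (adjusted p = 0.0162), as did leaving out hepcidin 3 h replicate 1 (0.0396), while leaving out PBS 1 h replicate 1 gave 0.281. Within hepcidin, Irak2 was higher at 3 h than at 1 h by 0.75 (SE 0.12, adjusted p = 0.00312), while within PBS the difference was 0.16 (SE 0.12, adjusted p = 0.750). The hepcidin effect at 3 h minus that at 1 h was 0.59 (95% interval 0.21 to 0.96) and did not pass (adjusted p = 0.193).

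Irak3 (Entrez gene 73914), known as IRAK-M, encodes the IRAK family member that dampens Toll-like receptor signalling in macrophages. It read 9.77, 9.86 and 9.73 on the log2 scale in the hepcidin arrays of 3 h, against 8.96, 8.79 and 8.92 in the PBS arrays of 3 h. The 1 h values were 8.93, 8.96 and 8.91 with hepcidin, against 8.68, 8.81 and 8.83 with PBS. The hepcidin arrays of 3 h stood apart from all 9 others, and those of 1 h overlapped the PBS arrays of 3 h. Irak3 rose 1.86-fold at 3 h (log2 difference 0.90, SE 0.07, limma adjusted p = 7.46e-06). At 1 h its groups did not overlap either, but the difference was 0.16 (SE 0.07, 95% interval 0.0056 to 0.32, adjusted p = 0.709). The effect at 3 h exceeded that at 1 h by 0.74 (SE 0.10, adjusted p = 0.00459). Such a difference between the times, in this direction, was called in 0.523% of all genes.

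The promoters of Irak2 and Irak3 are shown because these 2 genes rose together at 3 h, and that of Myd88 because it was the window with a motif match. Each is the 250 bases before the start, 5′ to 3′ on the gene's strand, from RefSeq on GRCm38.p6. The NF-kB consensus, the AP-1 site TGANTCA and TATAAA were searched on both strands, and capitals mark matches.
Irak2, chr6:113638217-113638466, + strand: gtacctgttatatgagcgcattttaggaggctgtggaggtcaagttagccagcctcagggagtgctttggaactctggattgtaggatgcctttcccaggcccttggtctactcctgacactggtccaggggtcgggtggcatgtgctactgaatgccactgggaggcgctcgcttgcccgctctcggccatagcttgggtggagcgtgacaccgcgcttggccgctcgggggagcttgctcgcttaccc
Irak3, upstream one of 2 listed starts, chr10:120202131-120202380, - strand: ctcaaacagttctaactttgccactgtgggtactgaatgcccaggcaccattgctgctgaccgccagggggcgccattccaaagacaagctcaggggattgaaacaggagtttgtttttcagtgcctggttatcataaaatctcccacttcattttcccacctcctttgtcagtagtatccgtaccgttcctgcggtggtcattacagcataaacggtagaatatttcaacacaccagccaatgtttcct
Myd88, chr9:119340019-119340268, - strand: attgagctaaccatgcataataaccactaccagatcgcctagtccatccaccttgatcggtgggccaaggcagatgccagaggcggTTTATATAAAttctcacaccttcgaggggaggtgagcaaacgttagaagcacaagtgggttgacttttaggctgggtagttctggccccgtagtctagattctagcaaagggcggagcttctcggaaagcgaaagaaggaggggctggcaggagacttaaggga
Examined here were 8 windows for 6 of the 8 genes, Myd88, Tirap, Ticam1, Irak2, Irak3 and Traf6. Windows of Map3k8 and Ticam2 are not reported here. These letters of the NF-kB consensus and the AP-1 site were found in 0 of the 8 windows, where 3.9% and 6.75% of 32851 windows of the same length hold them. TATAAA was found in the Myd88 window alone, as overlapping matches on both strands from base -164 to base -155, where 12.4% of all windows hold it. The G and C share of the Irak2 window was 60.0% and that of the Myd88 window 51.2%. For Irak3 it was 47.6% in the window shown and 66.4% in that of its other listed start.

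Map3k8 (Entrez gene 26410), also called Tpl2, encodes the kinase that links these receptors to the ERK MAP kinases and is held by an NF-kB precursor protein in resting cells. On the log2 scale its level was 8.28, 8.28 and 8.40 in the hepcidin arrays of 3 h, against 8.15, 8.07 and 8.13 in the PBS arrays of 3 h. It was 9.16, 9.03 and 9.12 in the hepcidin arrays of 1 h, against 8.15, 8.11 and 8.26 in the PBS arrays of 1 h. The hepcidin arrays of 1 h stood above all 9 others, and at 3 h hepcidin still lay above PBS without overlap. Map3k8 rose 1.90-fold at 1 h (log2 difference 0.93, SE 0.07, limma adjusted p = 1.27e-05), the 61st change in absolute size among all genes. At 3 h the difference of 0.21 (SE 0.07, 95% interval 0.054 to 0.36) did not pass (adjusted p = 0.131). The effect at 3 h was smaller than that at 1 h by a log2 difference of -0.72 (SE 0.10, adjusted p = 0.00448), a direction called in 0.507% of all genes. Within hepcidin, Map3k8 was 1.72-fold lower at 3 h than at 1 h (-0.78, SE 0.07, adjusted p = 4.36e-05), and within PBS the difference was -0.06 (SE 0.07, adjusted p = 0.876).

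**Figure D2:**
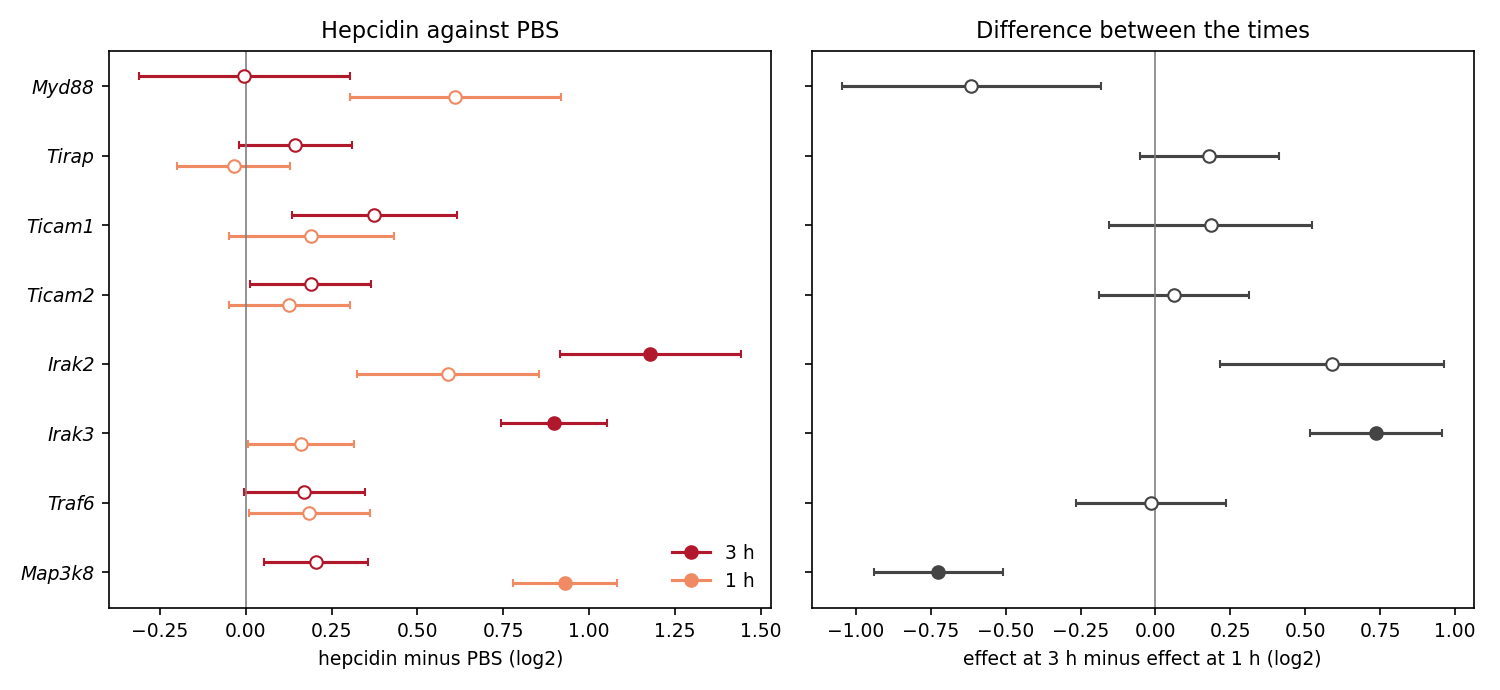
Log2 differences of the 8 genes with 95% intervals (limma, n = 3 arrays a group). On the left is hepcidin minus PBS at 3 h and at 1 h, and on the right the effect at 3 h minus that at 1 h. Filled points passed the threshold, and they are Irak2 and Irak3 at 3 h, Map3k8 at 1 h, and Irak3 and Map3k8 for the difference between the times.

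Among the adaptors, Myd88 (Entrez gene 17874), serves most Toll-like receptors and the interleukin-1 receptors. Its level was 10.00, 9.94 and 9.48 on the log2 scale in the hepcidin arrays of 3 h, against 9.83, 9.85 and 9.76 in the PBS arrays of 3 h. At 1 h it was 9.94, 9.84 and 9.62 with hepcidin, against 8.96, 9.37 and 9.24 with PBS. The PBS arrays of 1 h lay below all 9 others, whose groups overlapped. Hepcidin minus PBS was -0.0034 at 3 h (SE 0.14, 95% interval -0.31 to 0.30, adjusted p = 0.996) and 0.61 at 1 h (SE 0.14, 95% interval 0.30 to 0.92, adjusted p = 0.125). PBS at 3 h exceeded PBS at 1 h by 0.62 (SE 0.14), which did not pass (adjusted p = 0.0915). That comparison and the 1 h one share the PBS arrays of 1 h. The effect at 3 h minus that at 1 h was -0.61 (95% interval -1.05 to -0.18) and did not pass (adjusted p = 0.262). Hepcidin 3 h replicate 3, at 9.48, was the lowest of its group, and without it the 1 h difference (adjusted p = 0.0309) and the PBS difference (0.0373) passed.

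Ticam1 (Entrez gene 106759) encodes TRIF, the adaptor of Tlr3 and of the second Tlr4 branch. It read 6.83, 6.84 and 7.08 on the log2 scale in the hepcidin arrays of 3 h, against 6.48, 6.40 and 6.75 in the PBS arrays of 3 h. With hepcidin at 1 h it read 6.43, 6.55 and 6.49, against 6.32, 6.13 and 6.45 with PBS. Groups were apart at 3 h, narrowly, and overlapped at 1 h. The difference between hepcidin and PBS was 0.37 at 3 h (SE 0.11, 95% interval 0.13 to 0.61, adjusted p = 0.0779) and 0.19 at 1 h (SE 0.11, adjusted p = 0.829), and neither passed. Without PBS 3 h replicate 3 the 3 h difference was 0.48 and passed (adjusted p = 0.0374). Within hepcidin Ticam1 was higher at 3 h than at 1 h by 0.43 (SE 0.11, adjusted p = 0.0457), a call that ended with 8 of the 12 arrays left out in turn, with an adjusted p up to 0.173 without hepcidin 3 h replicate 3.

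The bridging adaptors Tirap (Entrez gene 117149) and Ticam2 (Entrez gene 225471), which bring Myd88 and Ticam1 to Tlr4, did not pass in any of the 5 comparisons. Tirap ranged from 7.91 to 8.03 on the log2 scale in the hepcidin arrays of 3 h, from 7.79 to 7.91 in the PBS arrays of 3 h, from 7.59 to 7.79 in the hepcidin arrays of 1 h and from 7.66 to 7.82 in the PBS arrays of 1 h. Its difference between hepcidin and PBS was 0.14 at 3 h (95% interval -0.020 to 0.31, adjusted p = 0.371) and -0.04 at 1 h (-0.20 to 0.13, adjusted p = 0.983). Within hepcidin, Tirap was at a higher level at 3 h than at 1 h by 0.27 without overlap (adjusted p = 0.0669), and this passed with the trended and robust prior (0.0376) and among genes above the median mean (0.0258). Ticam2 ranged from 7.48 to 7.69 in the hepcidin arrays of 3 h, from 7.37 to 7.49 in the PBS arrays of 3 h, from 7.27 to 7.50 in the hepcidin arrays of 1 h and from 7.18 to 7.27 in the PBS arrays of 1 h. Its difference was 0.19 at 3 h (95% interval 0.013 to 0.37, adjusted p = 0.252) and 0.13 at 1 h (-0.05 to 0.30, adjusted p = 0.859). The intervals of both genes leave out a change as large as that of Irak2 at 3 h.

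Traf6 (Entrez gene 22034), the ubiquitin ligase on which the Myd88 branch converges, had group means nearest to each other, with a range of 0.19 on the log2 scale. It read 7.74, 7.88 and 7.78 in the hepcidin arrays of 3 h, against 7.51, 7.62 and 7.76 in the PBS arrays of 3 h, and 7.87, 7.74 and 7.86 in the hepcidin arrays of 1 h, against 7.63, 7.56 and 7.72 in the PBS arrays of 1 h. Hepcidin lay above PBS without overlap at 1 h, and the groups overlapped at 3 h. The difference was 0.17 at 3 h (SE 0.08, 95% interval -0.0053 to 0.35, adjusted p = 0.315) and 0.19 at 1 h (SE 0.08, 95% interval 0.0093 to 0.36, adjusted p = 0.706). The difference between the times was -0.01 (95% interval -0.26 to 0.24).

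The order of group means differed between the genes. Irak2 and Irak3 had the order hepcidin 3 h, hepcidin 1 h, PBS 3 h and PBS 1 h, with Irak3 means of 9.78 ± 0.07, 8.93 ± 0.03, 8.89 ± 0.09 and 8.77 ± 0.08 (SD, n = 3 each). The Irak3 means of hepcidin at 1 h and PBS at 3 h lay closer together than the SD of the PBS group, and both PBS groups were not called different from each other. Traf6 and Map3k8 had the order hepcidin 1 h, hepcidin 3 h, PBS 1 h and PBS 3 h. Myd88, Tirap, Ticam1 and Ticam2 had both 3 h groups above both 1 h groups. For Myd88 the hepcidin means were nearly equal, 9.8082 at 3 h and 9.8008 at 1 h. Without hepcidin, 0 of 8 genes passed between 3 h and 1 h in limma, where 0.207% of all genes were higher and 0.243% lower. At an unadjusted p under 0.05 the PBS groups differed in 3 of 8, Myd88, Ticam1 and Ticam2, all higher at 3 h, where 5.37% of all genes were higher and 5.24% lower. Within hepcidin 3 of 8 were higher at 3 h than at 1 h and 1 lower, where 2.44% of all genes were higher and 2.61% lower. That comparison shares its arrays with those of hepcidin against PBS.

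Beyond these genes, 41 of 48 listed genes of the same pathway were measured, from co-receptors to MAP kinases. At 3 h 4 of the 41 were higher with hepcidin and 3 lower, where 2.8% of all genes were higher and 2.53% lower. At 1 h 2 were higher and 0 lower, where 0.527% of all genes were higher and 0.0324% lower. At an unadjusted p under 0.05, 8 were higher and 5 lower at 3 h (9.05% and 7.83% of all genes), and 5 were higher and 2 lower at 1 h (3.74% and 3.08% of all genes). The median log2 difference of the 41 was 0.04 at 3 h, against 0.016 over all genes, and 0.03 at 1 h, against -0.0022. This list too was chosen with earlier results of these data known. The largest rise was that of Ikbke, an IKK-related kinase of the interferon branch. It averaged 9.15 ± 0.10 on the log2 scale in hepcidin arrays and 7.60 ± 0.07 in PBS arrays at 3 h, and 8.04 ± 0.02 in hepcidin arrays and 7.48 ± 0.25 in PBS arrays at 1 h (SD, n = 3 each). Its difference was 1.55 at 3 h (SE 0.11, adjusted p = 2.34e-06) and 0.56 at 1 h (SE 0.11, adjusted p = 0.0414), and the 1 h call ended with 10 of the 12 arrays left out in turn (adjusted p up to 0.174 without hepcidin 1 h replicate 2).

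Nod2, a cytosolic sensor of bacterial cell wall fragments, was higher by 1.07 at 3 h (SE 0.15, adjusted p = 7.22e-04) and by 0.92 at 1 h (SE 0.15, adjusted p = 0.0105). Its 1 h call ended without PBS 1 h replicate 1 (adjusted p = 0.0631) or hepcidin 1 h replicate 1 (0.0630). Tank, a scaffold that binds TRAF proteins and IKK-related kinases, rose by 0.98 at 3 h (SE 0.10, adjusted p = 6.47e-05). Traf2, an adaptor of TNF receptors, was higher with hepcidin than with PBS at 3 h by 0.64 (SE 0.07, adjusted p = 1.49e-04). Traf2 averaged 7.37 with hepcidin and 6.73 with PBS at 3 h, and 7.11 with hepcidin and 7.03 with PBS at 1 h. Within PBS its level was lower at 3 h than at 1 h without overlap (-0.29, limma adjusted p = 0.122). Within hepcidin it was higher at 3 h than at 1 h, also without overlap (0.26, limma adjusted p = 0.0646). At 1 h Tank differed by 0.41 (adjusted p = 0.177) and Traf2 by 0.08 (adjusted p = 0.913).

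The 3 genes that were lower at 3 h were Map2k6, Irak1bp1 and Ly96. Map2k6, a kinase that activates p38, averaged 5.23 ± 0.41 with hepcidin and 6.40 ± 0.18 with PBS at 3 h, a difference of -1.17 (SE 0.16, adjusted p = 7.64e-04). At 1 h its difference was -0.04 (adjusted p = 0.993). Irak1bp1, which encodes a protein that binds Irak1, was lower by a log2 difference of -0.39 at 3 h (SE 0.09, adjusted p = 0.0262), a call that ended with 5 of the 12 arrays left out in turn (adjusted p up to 0.0853 without PBS 3 h replicate 1). Ly96, the Tlr4 co-receptor known as MD-2, lies outside the rule for naming genes and was named after its values were seen. It averaged 10.29 ± 0.05 with hepcidin and 10.65 ± 0.07 with PBS at 3 h, a difference of -0.36 (adjusted p = 0.00674). Irak1, the kinase that works beside Irak2, averaged 8.45 ± 0.03 with hepcidin and 8.48 ± 0.06 with PBS at 3 h, and 8.46 ± 0.16 with hepcidin and 8.44 ± 0.07 with PBS at 1 h. Its difference was -0.03 at 3 h (95% interval -0.21 to 0.15) and 0.02 at 1 h (95% interval -0.16 to 0.20).

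**Figure D3:**
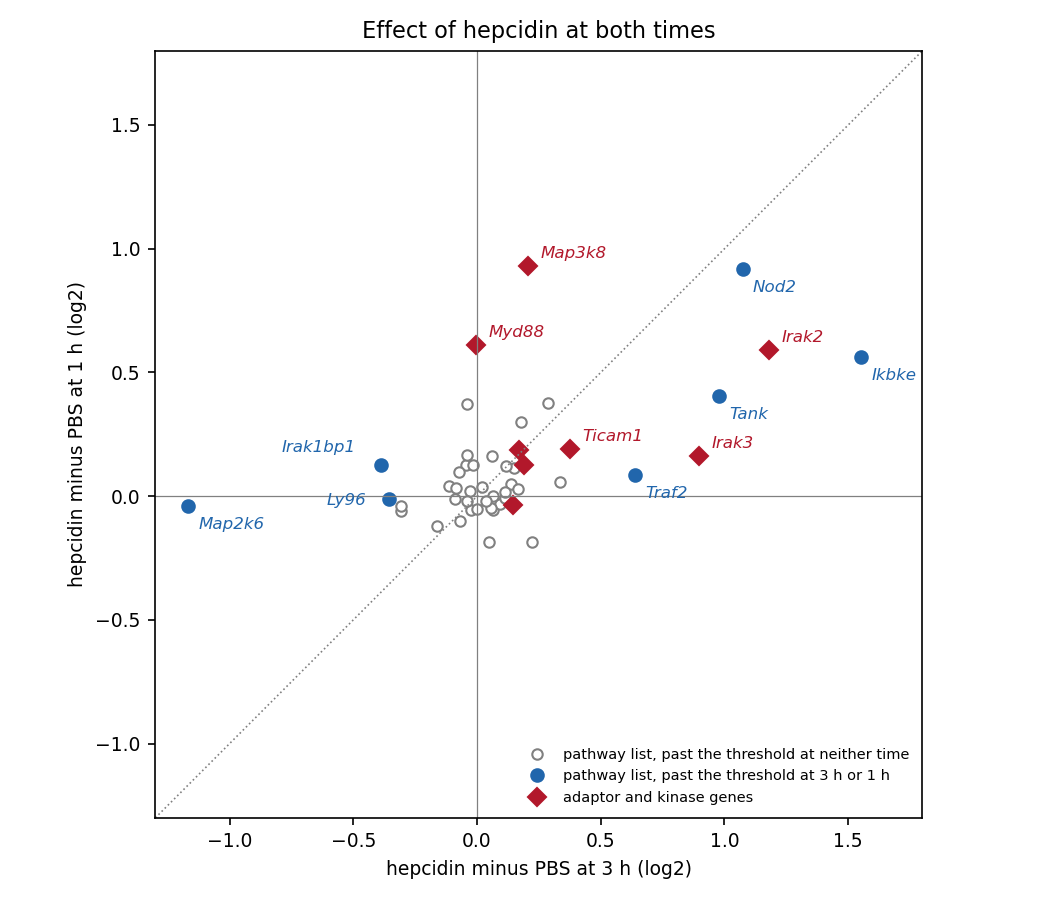
Hepcidin minus PBS (log2) at 3 h on the x axis and at 1 h on the y axis, with 1 point per gene, for the 8 adaptor and kinase genes and 41 other genes of the pathway. The dotted line marks equal differences. Map3k8 and Myd88 lie above the line, Irak2, Irak3 and Ikbke below it, and most other genes near the origin.

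For each gene past the threshold at 3 h or 1 h, likeness of pattern was measured as Pearson's r over the 12 arrays, which fall into the same 4 groups. Values most like those of Irak2 were found for Mgat4b, an N-glycan branching enzyme gene (r = 0.989), the chemokine gene Ccl4 (0.986) and Ikbke (0.983). Irak3 was most like Abcc1, an export transporter gene (r = 0.991), Tlr1, the partner of Tlr2 (0.989), and Ppfibp2, a liprin gene (0.989). Tlr1 averaged 9.32 in hepcidin arrays and 8.23 in PBS arrays at 3 h, and 8.21 in hepcidin arrays and 7.95 in PBS arrays at 1 h. Map3k8 was most like Tnfsf9, a costimulatory TNF family ligand gene (r = 0.989), Junb, an AP-1 subunit gene (0.974), and Mir155hg, the host transcript of a microRNA (0.964). Mir155hg averaged 4.47 in hepcidin arrays and 3.585 in PBS arrays at 3 h, and 5.83 in hepcidin arrays and 3.75 in PBS arrays at 1 h. Only its hepcidin mean of 1 h lay above the array medians, 4.84 to 4.94. Tnfsf9 averaged 7.08 in hepcidin arrays and 6.42 in PBS arrays at 3 h, and 8.90 in hepcidin arrays and 6.47 in PBS arrays at 1 h.

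**Figure D4:**
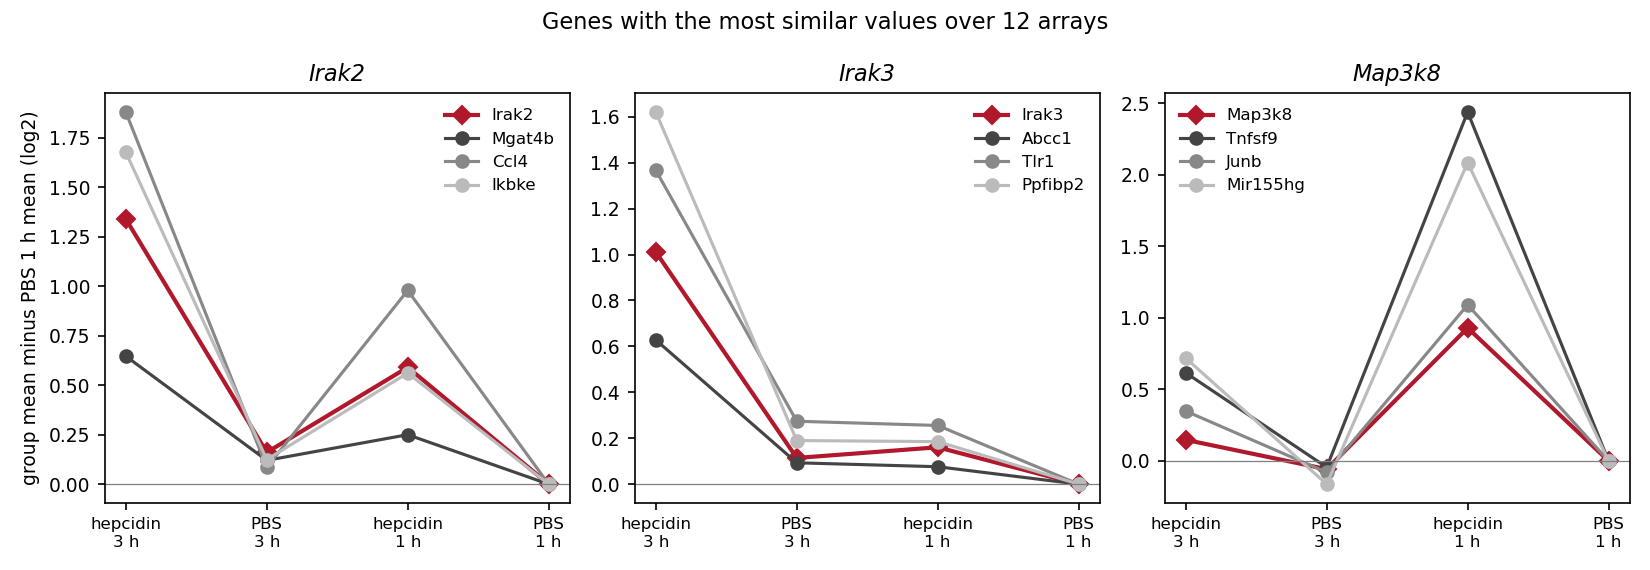
Group means minus the PBS 1 h mean (log2, n = 3 arrays a group) for Irak2, Irak3 and Map3k8 and for the 3 genes with the highest r to each over 12 arrays. Lines only join the groups of a gene. The genes beside Irak2 and Irak3 are highest with hepcidin at 3 h, and those beside Map3k8 with hepcidin at 1 h. They were chosen by r over these same arrays, so the shared peak follows from the choice.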

How the data were processed

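Expression was measured on Affymetrix arrays in 12 samples, 4 groups of 3. The values deposited by the authors were read as log2 intensities from RMA, a method that corrects background, normalizes quantiles and summarizes probes. RMA and Partek are named in the submitters' processing notes, without versions. The log base was inferred from the range of values, and no genome build is given in the sources used here. Of 25429 probe sets, 24675 carried 1 gene name each and were tested, and 754 without a name were left out. The number of arrays limits the precision, with a median SE of 0.0973 for a difference between groups.

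Group means of all 12 samples were fitted with limma 3.58.1 in R 4.3.3 (lmFit, contrasts.fit, eBayes, 8 residual degrees of freedom), two-sided, with Benjamini-Hochberg adjustment over all genes tested and a threshold of 0.05. The limma fit was tested on simulated data for hepcidin against PBS at 3 h only. Genes named are the listed members, Irak1, up to 6 pathway genes past the threshold with the largest change at each time, and for each member past it the 3 genes of highest r, leaving out predicted genes and numbered clones. The members and lists were chosen with earlier results of these data known. Alternatives changed the normalization, variance estimate, genes tested, arrays and replicate block. Promoter windows came from RefSeq.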

Additional observations from a re-analysis of the deposited data

Results flagged for a closer look

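For 5 of the genes described, the hepcidin effect (log2, hepcidin minus PBS) differed between 3 h and 1 h by the interaction term of limma. Irak3 had an effect of 0.90 at 3 h and 0.16 at 1 h, a difference of 0.74 (adjusted p = 0.00459, and 3.54e-04 to 0.0184 over the alternatives). Map3k8 had an effect of 0.21 at 3 h and 0.93 at 1 h, a difference of -0.72 (adjusted p = 0.00448, and 4.97e-04 to 0.0181 over the alternatives). Ikbke had effects of 1.55 at 3 h and 0.56 at 1 h, a difference of 0.99 (adjusted p = 0.00932), and passed under all 20 alternatives. Map2k6 differed by -1.13 (adjusted p = 0.0378), a call that ended under 12 of 20 alternatives, 9 of them the removal of 1 array. Traf2 differed by 0.55 (adjusted p = 0.0231), a call that ended under 10 of 20 alternatives, 9 of them the removal of 1 array. From 1 h to 3 h Traf2 changed by -0.29 within PBS and by 0.26 within hepcidin.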

How the results depend on the processing

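Under 21 alternatives, 12 of which left out 1 array each, 832 values of the 8 genes were recomputed. Of these, 804 kept their side of the threshold, 12 lost a call and 16 gained one. Direction was compared only for values called in either fit, and 0 of those reversed. Some uncalled differences changed sign, such as that of Myd88 between hepcidin and PBS at 3 h, which ran from -0.1016 to 0.161. The calls of Irak2 and Irak3 at 3 h, of Map3k8 at 1 h and of Irak3 and Map3k8 between the times held in every alternative run for them. The number of the 8 past the threshold at 1 h was 1, and 2 with the replicate block, the trended and robust prior, genes above the median mean or array weights, where Irak2 was added, and 1 to 2 with 1 array left out. For PBS at 3 h against 1 h it was 0, and 1 with the trended and robust prior, genes above the median mean or array weights, where Myd88 was added, and 0 to 1 with 1 array left out. The cause was not tested. The replicate numbers were not taken as pairs. The rule set here asked every same-number pair for a correlation of deviations over 0.1, and 9 of 18 had one. That bar is a convention and does not show that the samples were unpaired. In 28 of 36 comparisons of a sample with the 3 samples of another group, its own number was the closest, a hint of pairing from the data. Same-number pairs had r of -0.0054 to 0.2457, and different-number pairs -0.219 to 0.1744. Sample titles use the same numbers in every group, without saying whether these mark pairs. With the replicate block Ticam1 at 3 h (adjusted p = 0.0279) and Irak2 at 1 h (0.0222) passed. Of the 41 pathway genes the count at 1 h was 2. With 1 array left out it was 1 for 8 of the 12 arrays, and 2 when the array removed was replicate 3 of PBS at 1 h or replicate 1 of hepcidin at 3 h. The count was 0 without PBS 1 h replicate 1, without hepcidin 1 h replicate 1, with the compared groups alone or with unmoderated variance. With 3 arrays a group, differences near the median SE of 0.0973 could not be called.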
